A study of Mus musculus with 6 samples.

Results

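Small leucine-rich proteoglycans (SLRPs) are secreted proteins with a short core of leucine-rich repeats, most of them carrying 1 or more glycosaminoglycan chains. The 9 genes described here, *Dcn*, *Bgn*, *Aspn*, *Lum*, *Fmod*, *Prelp*, *Omd*, *Ogn* and *Podn*, were taken by symbol from the 41709 genes of the deposited table. All 9 were found, and 8 of them had a mean of at least 1 in the length-scaled unit TPM, in which each library has the same total, over the 6 libraries and were tested. *Omd* lay below that level and is described by its values.

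The RNA came from tibialis anterior (TA) muscles of male C57BL/6J mice, taken 14 days after electroporation. In 3 muscles the plasmid drove Flag-tagged Lrpprc with alanine in place of proline 27 (LrpprcP27A), a residue that is dihydroxylated in the normal protein, and 3 contralateral muscles received the Flag-tagged normal form (LrpprcWT). Lrpprc is an RNA-binding protein best known for its role in mitochondrial RNA. Both groups thus carried extra Lrpprc, a CMV promoter and the injury of electroporation, which reaches part of the fibres. The comparison asks what the P27A change adds to that, as far as the level of Lrpprc was alike (values below). The sources used here do not say outright whether the 6 libraries came from young or old mice, both of which the study used.

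SLRPs coat collagen fibrils, where decorin, biglycan, lumican and fibromodulin set the spacing and thickness of the fibrils. They also hold growth factors of the TGF-β family in the matrix, and free biglycan and decorin can signal through Toll-like receptors. In skeletal muscle their RNA comes mainly from fibroblasts, fibro-adipogenic progenitors and tendon cells rather than from myofibres. In bulk muscle, fewer such cells and less RNA per cell cannot be told apart.

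Several of the genes sit beside each other in the genome (GRCm39, GENCODE annotation). On chromosome 13, *Ecm2* (49658236 to 49687964), a related leucine-rich matrix gene, *Aspn* (49697609 to 49721057), *Omd* (49735938 to 49746298) and *Ogn* (49761349 to 49780412) follow each other on the plus strand with no other coding gene between them. On chromosome 10, *Dcn* (97315275 to 97358155), *Lum* (97400990 to 97408577) and *Kera* (97442728 to 97449554) do the same. *Prelp* (minus strand, 133837335 to 133857971) and *Fmod* (plus strand, 133964992 to 133976015) are next to each other on chromosome 1, 107020 bases apart. *Bgn* lies alone on chromosome X (72527208 to 72539541, plus strand) and *Podn* on chromosome 4 (107871988 to 107889534, minus strand).

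The sequences just before the start sites of *Aspn*, *Ogn* and *Bgn* are shown because these genes were called lower in the LrpprcP27A muscles and their promoters differ in GC content. Each run is 250 bases of GRCm39 ending at the base before the start of the canonical transcript, on the plus strand, with no annotated exon in it. The annotated *Aspn* gene starts upstream of this, at 49697609, so the *Aspn* run lies within the gene. Capitals mark TATAAA, the TATA box letters, in *Aspn* and *Ogn*, and GGGCGG, the GC box letters, in *Bgn*, in either orientation. The regions are chr13:49697669-49697918, chr13:49761099-49761348 and chrX:72526958-72527207.
Aspn: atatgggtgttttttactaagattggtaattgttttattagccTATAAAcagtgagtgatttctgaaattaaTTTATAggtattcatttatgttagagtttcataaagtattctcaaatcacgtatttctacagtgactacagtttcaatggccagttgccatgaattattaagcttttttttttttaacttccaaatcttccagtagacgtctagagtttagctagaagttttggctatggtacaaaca
Ogn: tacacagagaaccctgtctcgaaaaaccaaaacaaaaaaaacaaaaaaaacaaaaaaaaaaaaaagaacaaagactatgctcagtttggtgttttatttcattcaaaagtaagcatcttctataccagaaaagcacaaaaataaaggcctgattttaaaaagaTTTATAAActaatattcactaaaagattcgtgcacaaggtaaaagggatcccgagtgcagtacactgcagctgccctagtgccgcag
Bgn: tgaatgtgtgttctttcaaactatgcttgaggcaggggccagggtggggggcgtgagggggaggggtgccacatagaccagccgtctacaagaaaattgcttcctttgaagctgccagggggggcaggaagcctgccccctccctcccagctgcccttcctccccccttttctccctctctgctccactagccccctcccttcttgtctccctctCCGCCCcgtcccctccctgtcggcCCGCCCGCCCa

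In windows from 250 bases before to 50 after the start site, TATAAA was found on either strand in 2 of the 9 members, *Aspn* and *Ogn*, and in 13.2% of 21751 protein-coding promoters. The matches begin at positions -207 and -178 from the start in *Aspn*, and at -87 and -85, overlapping, in *Ogn*. GGGCGG was found in *Bgn* and *Podn* and in 42.5% of all promoters. The *Aspn* window had a GC content of 31.0% and the *Bgn* window 63.7%, against a median of 54.3% over all promoters. The window of *Podn*, which was not called, had 75.0%. CANNTG, the letters of an E-box, was found in 6 members, among them *Aspn*, *Ogn* and *Bgn*, and in 70.6% of all promoters. CAGAC, the letters of a SMAD motif, was found in *Dcn*, *Lum*, *Fmod* and *Prelp*, that is in members that were called lower and in members that were not, and in 48.4% of all promoters. TGACTCA, the letters of an AP-1 motif, was found in 0 member windows and in 4.70% of all promoters. These are matches of letters and no evidence of binding.

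The libraries as a whole were shifted, and this touches every value below. TPM adds up to the same total in each library. The RNA gene *Rn18s-rs5* took 8874 to 17614 TPM in the LrpprcWT libraries and 37023 to 44435 TPM in the LrpprcP27A libraries, and mitochondrial genes took 36.0% to 45.2% and 44.2% to 46.1% of TPM. The median log2 fold change of all 11611 tested genes was -0.32, and 88.0% of them were below 0. After median-of-ratios scaling, which sets the libraries to a common typical gene, the median was 0.04 and 44.9% were below 0. On the deposited scale 2705 genes were lower and 156 higher (adjusted p under 0.05), against 675 lower and 793 higher after that scaling. *Lrpprc* itself, which sums the endogenous and plasmid RNA as far as the authors' reference could hold both, was at 35.1, 37.0 and 75.2 TPM in LrpprcWT replicates 1 to 3 and at 26.9, 29.7 and 26.0 TPM in LrpprcP27A. On this scale every LrpprcP27A value was below every LrpprcWT value. An effect of the *Lrpprc* level thus cannot be told apart from that of the P27A change. By qRT-PCR the paper reports similar *Lrpprc* mRNA levels with both plasmids. On the first principal component, which held 78.1% of the variance, LrpprcWT replicate 2 (-0.80) lay between the other LrpprcWT libraries (-42.4 and -41.6) and the LrpprcP27A libraries (18.0 to 38.9).

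Of the 8 tested members, 5 were lower in LrpprcP27A at an adjusted p under 0.05 (*Aspn*, *Bgn*, *Lum*, *Ogn* and *Dcn*), where 23.3% of all tested genes were. With limma, 0 members were higher, also at an unadjusted p under 0.05 and by the Kruskal-Wallis test, where 1.34% of all genes were higher by the adjusted limma test. After median-of-ratios scaling 3 members were called lower (*Aspn*, *Bgn* and *Lum*), against 5.81% of all genes. With the library number, which both groups share, as a block, 6 were called, *Prelp* being added, against 48.4% of all genes. The sources used here do not say outright that the number marks the mouse. Libraries of the same number are called pairs below. The median log2 fold change of the 8 members was -0.88 as deposited and -0.47 after median-of-ratios scaling. Fold changes are on the log2(TPM + 1) scale and somewhat understate the change of low genes.

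**Figure D1:**
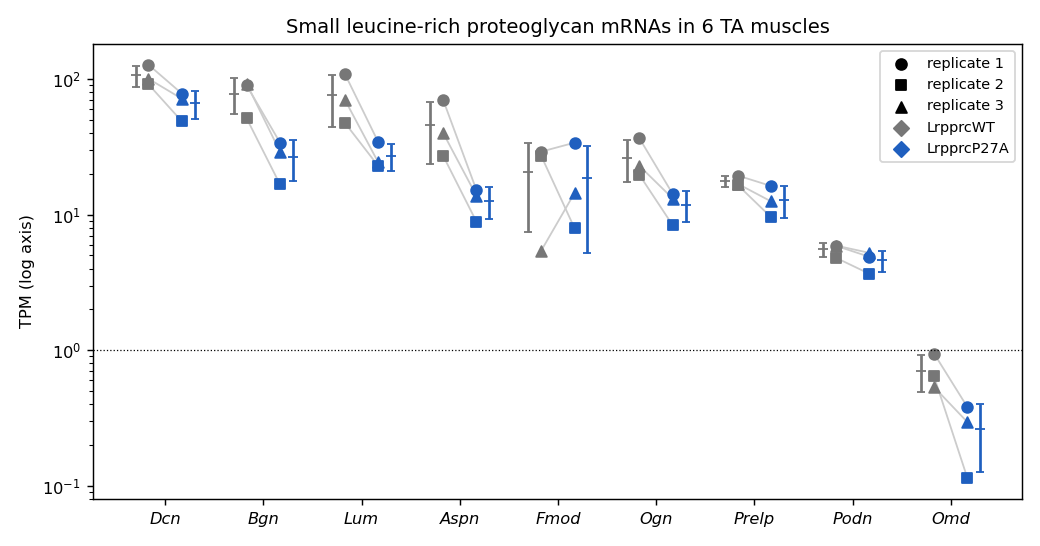
TPM (log axis) of the 9 members in each library, LrpprcWT in grey and LrpprcP27A in blue, with lines joining libraries of the same number and bars for the mean ± SD (n = 3). The dotted line is the level of 1 TPM needed for a test. In *Dcn*, *Bgn*, *Lum*, *Aspn*, *Ogn*, *Prelp* and *Omd* all LrpprcP27A points lie below all LrpprcWT points, while *Fmod* shows no such order.

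Decorin, the best known class I member, binds collagen I and TGF-β and carries 1 chondroitin or dermatan sulfate chain. *Dcn* was at 128.1, 91.8 and 100.9 TPM in LrpprcWT and at 78.4, 48.9 and 71.8 TPM in LrpprcP27A. Every LrpprcP27A library was below every LrpprcWT library, and within each library number the LrpprcP27A muscle was the lower. The means were 107 ± 18.9 and 66.4 ± 15.5 TPM (SD, n = 3), a log2 fold change of -0.69 (SE 0.19, adjusted p = 0.0366). Median-of-ratios scaling brought it to -0.28 (adjusted p = 0.272), so the call for *Dcn* depended on the scale.

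Biglycan is the closest relative of decorin and carries 2 glycosaminoglycan chains. *Bgn* was at 90.1, 51.4 and 92.9 TPM in LrpprcWT and at 34.0, 16.7 and 29.2 TPM in LrpprcP27A. The groups did not overlap, and the second library of each group was the lowest. The means were 78.2 ± 23.2 and 26.6 ± 8.93 TPM, a log2 fold change of -1.53 (SE 0.29, adjusted p = 0.0168). It stayed past the threshold after median-of-ratios scaling (-1.11, adjusted p = 0.0343).

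*Bgn* fell further than *Dcn*. The ratio of *Bgn* to *Dcn* TPM, which no scaling of a library can change, was 0.704, 0.560 and 0.921 in LrpprcWT and 0.434, 0.342 and 0.406 in LrpprcP27A. All LrpprcP27A ratios were below all LrpprcWT ratios. The means were 0.728 ± 0.181 and 0.394 ± 0.0474 (SD, n = 3), a log2 difference of -0.86. The exact two-sided permutation test gave p = 0.1, the smallest value that 3 against 3 libraries allow. That test ignored the pairs. Flipping the signs of the 3 pair differences instead (exact two-sided test by pairs) gave p = 0.25, the smallest value that 3 pairs allow.

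Asporin is a class I protein with a run of aspartate residues and no typical glycosaminoglycan site, and it binds TGF-β and collagen. *Aspn* was at 70.7, 27.3 and 40.2 TPM in LrpprcWT and at 15.2, 8.88 and 13.8 TPM in LrpprcP27A. No LrpprcP27A library reached the lowest LrpprcWT library, although the LrpprcWT libraries differed widely. The means were 46.1 ± 22.3 and 12.6 ± 3.32 TPM, and the log2 fold change was -1.71 (SE 0.32, adjusted p = 0.0167), the lowest of the tested members. Median-of-ratios scaling left it at -1.31 (adjusted p = 0.0323).

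Lumican, a class II keratan sulfate proteoglycan, binds collagen I at a site it shares with fibromodulin. *Lum* was at 109.7, 47.7 and 70.6 TPM in LrpprcWT and at 34.4, 22.9 and 24.3 TPM in LrpprcP27A. The groups did not overlap. The means were 76.0 ± 31.3 and 27.2 ± 6.26 TPM, a log2 fold change of -1.39 (SE 0.28, adjusted p = 0.0187), and -0.98 (adjusted p = 0.0386) after median-of-ratios scaling.

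Fibromodulin, the class II relative of lumican and abundant in tendon, stood apart from the rest. *Fmod* was at 29.2, 27.2 and 5.43 TPM in LrpprcWT and at 34.0, 7.91 and 14.5 TPM in LrpprcP27A. The highest of the 6 values and the second lowest were both in LrpprcP27A, and the lowest was in LrpprcWT replicate 3. The LrpprcP27A muscle was the lower in 1 of 3 pairs. The means were 20.6 ± 13.2 and 18.8 ± 13.6 TPM, with a log2 fold change of -0.06 (SE 0.64, adjusted p = 0.941), or 0.33 (adjusted p = 0.772) after median-of-ratios scaling.

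PRELP is a class II protein with an arginine-rich end that binds heparan sulfate at basement membranes. *Prelp* was at 19.5, 16.6 and 16.9 TPM in LrpprcWT and at 16.3, 9.58 and 12.5 TPM in LrpprcP27A. The groups did not overlap, though LrpprcP27A replicate 1 nearly reached the lowest LrpprcWT library. The means were 17.7 ± 1.57 and 12.8 ± 3.36 TPM, a log2 fold change of -0.46 (SE 0.18, adjusted p = 0.0827). With the replicate block the adjusted p was 0.00813, and median-of-ratios scaling took the log2 fold change to -0.06 (adjusted p = 0.806).

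Osteoadherin, the product of *Omd*, is a class II member of bone and tooth matrix. *Omd* was at 0.943, 0.639 and 0.534 TPM in LrpprcWT and at 0.379, 0.113 and 0.294 TPM in LrpprcP27A. All values were under 1 TPM, and those of LrpprcP27A were all below those of LrpprcWT. When no filter on low values was used, its log2 fold change was -0.43 (adjusted p = 0.0797), with no call.

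Osteoglycin (mimecan) is the class III member of this set, found in muscle and bone as a secreted factor. *Ogn* was at 36.6, 19.6 and 22.9 TPM in LrpprcWT and at 14.2, 8.32 and 13.1 TPM in LrpprcP27A. The groups did not overlap. The means were 26.4 ± 9.002 and 11.9 ± 3.12 TPM, a log2 fold change of -1.07 (SE 0.25, adjusted p = 0.0259). Median-of-ratios scaling brought it to -0.67 (adjusted p = 0.0766), and with both that scaling and the block the adjusted p was 0.0191.

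Podocan is a class V member of vascular and other connective tissue. *Podn* was at 5.89, 4.81 and 5.92 TPM in LrpprcWT and at 4.89, 3.67 and 5.23 TPM in LrpprcP27A. The groups overlapped, although the LrpprcP27A muscle was the lower in each of the 3 pairs. The means were 5.54 ± 0.633 and 4.59 ± 0.822 TPM, and the log2 fold change of -0.23 (SE 0.16, adjusted p = 0.261) turned to 0.12 (adjusted p = 0.462) after median-of-ratios scaling.

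**Figure D2:**
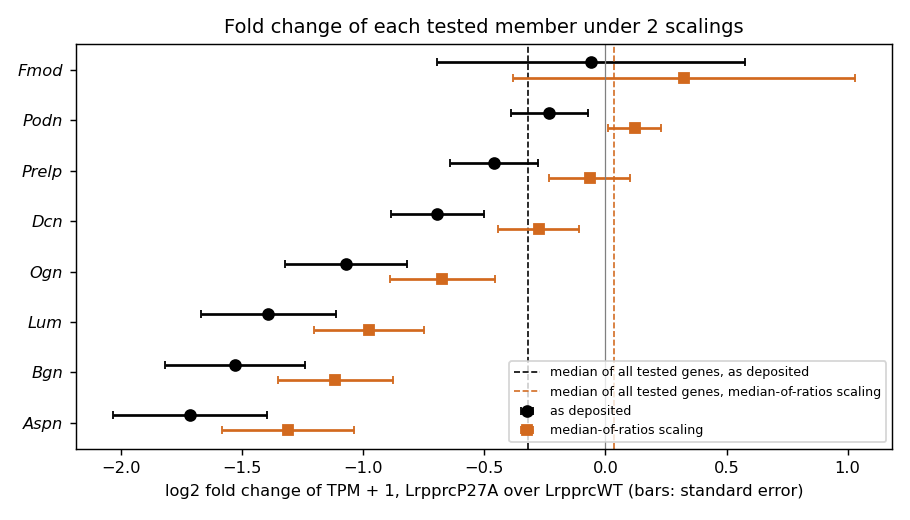
Log2 fold change of TPM + 1, LrpprcP27A over LrpprcWT, with its standard error, of the 8 tested members as deposited (black) and after median-of-ratios scaling (orange). Dashed lines mark the median of all tested genes, -0.32 and 0.04. *Aspn*, *Bgn*, *Lum* and *Ogn* lie farthest to the left on both scales, and *Fmod* and *Podn* lie right of 0 after scaling.

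In 6 of the 8 tested members all LrpprcP27A libraries were below all LrpprcWT libraries, where 47.6% of all tested genes showed this. The calls leaned on particular libraries. Without LrpprcWT replicate 3, 0 of the 8 members were called by limma (5 at an unadjusted p under 0.05), with 15 genes lower over the whole table. Without LrpprcWT replicate 1, 2 members and 291 genes of the whole table were called lower. Without LrpprcP27A replicate 2 or 3, 3 members were called each time, with 504 and 440 genes lower over the whole table. Over these left-out libraries the log2 fold change of *Aspn* ranged from -2.03 to -1.36, that of *Bgn* from -1.80 to -1.24, that of *Lum* from -1.68 to -1.09, that of *Ogn* from -1.25 to -0.82 and that of *Dcn* from -0.83 to -0.49. Their largest adjusted p lay between 0.0948 (*Aspn*) and 0.122 (*Dcn*).

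TPM is scaled by transcript length, so levels can be set side by side between genes. *Dcn* ranked first and *Omd* last in all 6 libraries. By its mean *Dcn* was in the top 6.06% of tested genes, *Bgn* in the top 9.96% and *Podn* in the top 60.5%. In LrpprcWT the mean levels ran *Dcn*, *Bgn*, *Lum*, *Aspn*, *Ogn*, *Fmod*, *Prelp*, *Podn* and *Omd*, and of these neighbours only *Prelp* and *Podn*, and *Podn* and *Omd*, had ranges that did not overlap. In LrpprcP27A the order was *Dcn*, *Lum*, *Bgn*, *Fmod*, *Prelp*, *Aspn*, *Ogn*, *Podn* and *Omd*, and the gaps between *Dcn* and *Lum*, *Ogn* and *Podn*, and *Podn* and *Omd* exceeded the spread. *Aspn* held rank 4 in every LrpprcWT library and rank 5 or 6 in LrpprcP27A.

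Summed over the 9 members, the family stood at 490.7, 287.1 and 356.3 TPM in LrpprcWT and at 231.7, 127.0 and 184.8 TPM in LrpprcP27A. The groups did not overlap, and the ratio of geometric means was 0.477. The exact two-sided permutation test gave p = 0.1 and the exact test by pairs p = 0.25, each the smallest possible. The makeup changed as well as the sum. *Dcn* made up 28.8% ± 2.97 of the sum in LrpprcWT and 37.1% ± 2.81 in LrpprcP27A (SD, n = 3), while *Bgn* went from 20.8% ± 4.58 to 14.5% ± 1.31 and *Aspn* from 11.7% ± 2.48 to 7.01% ± 0.455. *Prelp* took 4.83% ± 0.909 and 7.12% ± 0.386, and *Podn* 1.51% ± 0.269 and 2.61% ± 0.432. The shares of *Ogn* (6.91% ± 0.520 and 6.59% ± 0.501) lay within the spread, and that of *Fmod* varied from 1.52% to 14.7% between libraries. Shares are given as a description, with no test, and since they add to 100% a rise of *Dcn* here is no rise of its RNA.

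**Figure D3:**
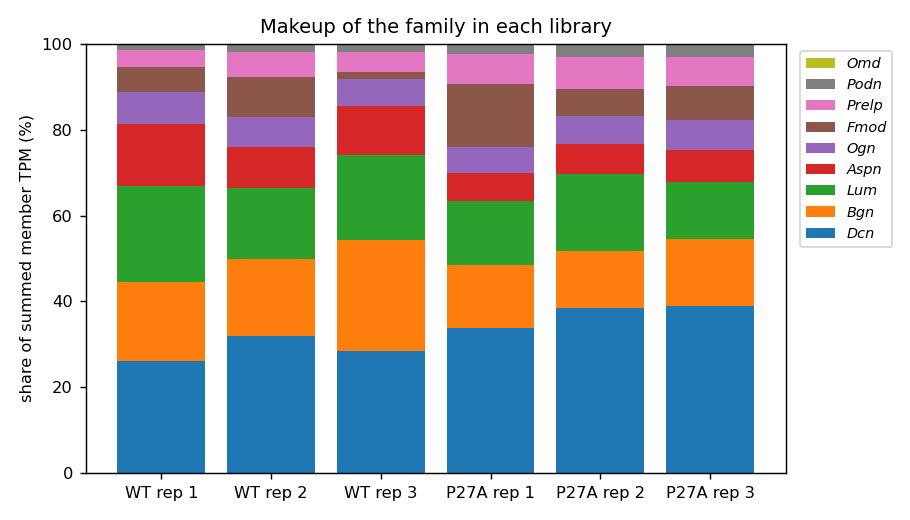
Share (%) of each member in the summed TPM of the 9 members, per library. In the LrpprcP27A bars *Dcn* takes 33.8% to 38.8% against 26.1% to 32.0% in LrpprcWT, and *Aspn* takes 6.56% to 7.47% against 9.52% to 14.4%.

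The members varied together over the 6 libraries, with *Fmod* as the exception. Of the 28 pairs of tested members, the 7 with the lowest Pearson r of log2(TPM + 1) were those with *Fmod* (0.10 to 0.50), and the other 21 reached from 0.75 upward, up to 0.99 for *Aspn* and *Ogn*. These values hold the difference between the groups and the shared shift of the libraries, and they are given over 6 libraries as a description. Of the deviations from the group means, r ranged from 0.15 to 0.97 with a median of 0.78. By that measure *Fmod* was less clearly apart, with 0.69 for *Fmod* and *Prelp* against 0.59 for *Lum* and *Podn*. The lowest value was still that of *Bgn* and *Fmod*.

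*Ecm2*, the neighbour of *Aspn* on chromosome 13, was at 13.6, 6.53 and 8.22 TPM in LrpprcWT and at 5.67, 3.08 and 3.82 TPM in LrpprcP27A, without overlap, with a log2 fold change of -0.98 (adjusted p = 0.0344), or an adjusted p of 0.0984 after median-of-ratios scaling. On the deposited scale all LrpprcP27A libraries were below all LrpprcWT libraries in the 4 genes of that stretch, as in 47.6% of all tested genes. Of these 4, *Aspn* alone kept its call after median-of-ratios scaling, and *Omd* was not tested. On chromosome 10, *Dcn* and *Lum* were called, while *Kera*, the next gene, coding for keratocan, was at 4.63, 6.72 and 1.00 TPM in LrpprcWT and at 8.48, 2.19 and 3.14 TPM in LrpprcP27A, with overlap (log2 fold change 0.17, adjusted p = 0.793).

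*Kera* was instead among the genes most like *Fmod*. The 5 genes with the highest r to *Fmod* over the 6 libraries, a comparison chosen after its values were seen, were *Vit* (0.97), *Ptx4* (0.97), *Kera* (0.96), *Chad* (0.95) and *Angptl7* (0.93), and 8 of 11603 genes were over 0.9. Of these 5, *Kera* and *Chad*, which codes for chondroadherin of cartilage and tendon, are SLRP genes outside the 9. *Chad* was at 4.23, 2.18 and 0.195 TPM in LrpprcWT and at 2.60, 0.243 and 0.908 TPM in LrpprcP27A. As in *Fmod*, its lowest value was in LrpprcWT replicate 3. For the mean profile of the tested members, the most alike non-members were *Samd14*, *Scara3*, *Borcs7*, *Jam3* and *Pear1* (r 0.99 each), and 1405 genes exceeded 0.9. By deviations from the group means they were *Grk2*, *Cfap36*, *Pde4c*, *Samd14* and *Abca2* (0.98 to 0.99), with 222 genes over 0.9.

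**Figure D4:**
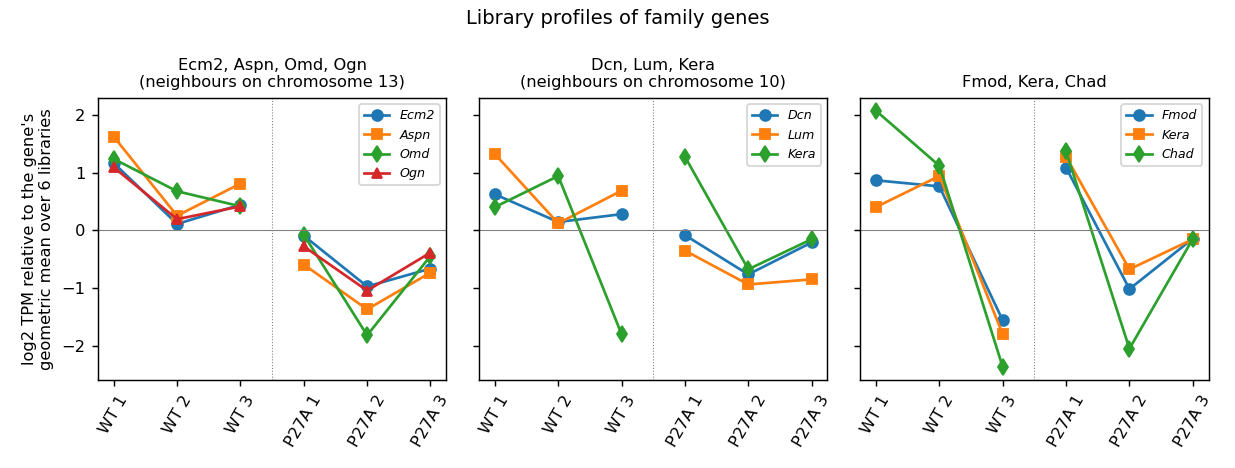
Log2 TPM of each gene relative to its geometric mean over the 6 libraries, for the neighbours on chromosome 13, the neighbours on chromosome 10, and *Fmod* with *Kera* and *Chad*. The chromosome 13 genes lie lower in LrpprcP27A, with LrpprcWT replicate 2 the lowest of its group in *Ecm2*, *Aspn* and *Ogn* but not in *Omd*, whereas *Fmod*, *Kera* and *Chad* are lowest in LrpprcWT replicate 3 and high in LrpprcP27A replicate 1.

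The other SLRP genes were mostly low. The counts of genes called lower, here and in the lists below, stand beside 23.3% of all tested genes. That share was 48.4% with the block and 5.81% after median-of-ratios scaling. Of 9 further genes of the family, 4 were tested and 2 of them were lower, *Ecm2* and *Tsku* (tsukushi, an inhibitor of growth factor signals, log2 fold change -0.98, adjusted p = 0.0444, with overlapping groups). After median-of-ratios scaling 0 of the 4 were called by limma (2 at an unadjusted p under 0.05), *Tsku* having an adjusted p of 0.0903. *Epyc*, *Optc*, *Nyx*, *Chadl* and *Podnl1* were under 1 TPM on average.

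The summed RNA of the collagens that SLRPs bind was lower by a larger factor than the summed SLRP RNA, although *Aspn* and *Bgn* were at lower log2 fold changes than the collagen VI chains. All 11 of 11 tested collagen genes were lower on the deposited scale and 10 after median-of-ratios scaling, with a median log2 fold change of -1.68. *Col3a1*, the chain of collagen III, was at 615.3, 342.4 and 577.7 TPM in LrpprcWT and at 183.9, 79.8 and 95.7 TPM in LrpprcP27A (log2 fold change -2.14, SE 0.32, adjusted p = 0.0116). The summed SLRP TPM divided by the summed collagen TPM was 0.275, 0.270 and 0.218 in LrpprcWT and 0.379, 0.476 and 0.553 in LrpprcP27A. Every LrpprcP27A library had more SLRP RNA per collagen RNA than every LrpprcWT library, by 1.83-fold between geometric means. The exact two-sided permutation test gave p = 0.1 and the exact test by pairs p = 0.25, each the smallest possible. The ratio of SLRPs to collagens does not depend on the scaling of the libraries, but its size depends on the collagens chosen. Against the 3 chains of collagen VI alone, a choice made after the data were seen, it was 1.71 ± 0.221 in LrpprcWT and 2.14 ± 0.144 in LrpprcP27A, a 1.26-fold difference, again without overlap.

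Enzymes that build the sugar chains had a median log2 fold change of -0.50 for chondroitin and dermatan sulfate and -0.38 for keratan sulfate. Of the 17 tested genes of chondroitin and dermatan sulfate synthesis, 6 were lower, 12 with the replicate block, and after median-of-ratios scaling 3 were lower and 1 higher (*Fam20b*, the xylose kinase). *Dse*, the epimerase that makes dermatan sulfate, was at 4.25, 2.81 and 4.23 TPM in LrpprcWT and at 1.72, 1.17 and 1.43 TPM in LrpprcP27A (log2 fold change -0.96, adjusted p = 0.0163, and -0.66, adjusted p = 0.0259, after scaling). *B3gat3*, which completes the linker to the core protein and was the most abundant of the list, was at 19.9, 19.6 and 22.5 TPM in LrpprcWT and at 17.1, 17.1 and 18.2 TPM in LrpprcP27A (log2 fold change -0.23, adjusted p = 0.141). Of 5 tested genes of keratan sulfate synthesis, 1 was lower, *Chst1* (-0.92, adjusted p = 0.0494), and 3 with the block. *Chst1* after median-of-ratios scaling had an adjusted p of 0.114, 0 were lower by limma (1 at an unadjusted p under 0.05) and 1 was higher, *Fut8* (0.32, adjusted p = 0.0486). *B4galt1*, the most abundant, had an adjusted p of 0.0832 (0.0187 with the block).

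The list of proteases that process SLRPs or their partners also held *Pcolce*, an enhancer of a proteinase and itself no protease. Of its 10 tested genes 7 were lower, 9 with the block and 5 after median-of-ratios scaling, with a median log2 fold change of -1.23. *Pcolce* was counted in each (-1.26, adjusted p = 0.0160, and adjusted p = 0.0343 after scaling). *Mmp2*, gelatinase A, which was both the most abundant and the one with the smallest p, was at 115.3, 66.5 and 86.8 TPM in LrpprcWT and at 44.2, 22.5 and 28.9 TPM in LrpprcP27A (log2 fold change -1.48, adjusted p = 0.0154). *Bmp1*, the proteinase that removes the propeptides of biglycan and of procollagens, was at -1.03 (adjusted p = 0.0247). It narrowly lost its call after median-of-ratios scaling (adjusted p = 0.05004).

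Of 12 tested receptors that bind SLRPs, 5 were lower, 9 with the block and 2 after median-of-ratios scaling. *Cd14*, the co-receptor of the Toll-like receptors, was at 6.59, 5.44 and 13.2 TPM in LrpprcWT and at 2.87, 1.53 and 2.41 TPM in LrpprcP27A (log2 fold change -1.46, adjusted p = 0.0187). *Tlr2* was lower (-0.90, adjusted p = 0.0315), but was not called after median-of-ratios scaling (adjusted p = 0.0627). *Tlr4* had an adjusted p of 0.0593 (0.00101 with the block). *Kdr*, the VEGF receptor of endothelium and the most abundant of the list, was at -0.34 (adjusted p = 0.211, and 0.0282 with the block).

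Among 8 growth factors that SLRPs bind, 3 were lower and 1 was higher, and with the block 5 and 1. *Tgfb1*, held by decorin, was at 12.3, 7.87 and 14.5 TPM in LrpprcWT and at 6.25, 3.25 and 4.90 TPM in LrpprcP27A (log2 fold change -1.11, adjusted p = 0.0246, and adjusted p = 0.0486 after median-of-ratios scaling). *Mstn*, myostatin, which decorin also binds and which myofibres make, was the gene that rose, from 5.57, 10.3 and 9.10 TPM to 12.5, 20.7 and 24.2 TPM (log2 fold change 1.10, adjusted p = 0.0279). Its groups did not overlap. *Ccn2*, the most abundant of the list, had a log2 fold change of -1.58 with an adjusted p of 0.0678, and 3.8e-06 with the block. LrpprcWT replicate 2 (20.04 TPM) lay among the LrpprcP27A libraries (12.2 to 24.8 TPM), and the LrpprcP27A muscle was the lower in each of the 3 pairs.

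Of 15 tested proteoglycans outside the SLRP family, 10 were lower, 12 with the block and 2 after median-of-ratios scaling, with a median log2 fold change of -0.68. *Sdc2*, the syndecan of mesenchymal cells, was at -1.10 (adjusted p = 0.0166), whereas *Gpc1*, the most abundant, was at -0.27 (adjusted p = 0.110).

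**Figure D5:**
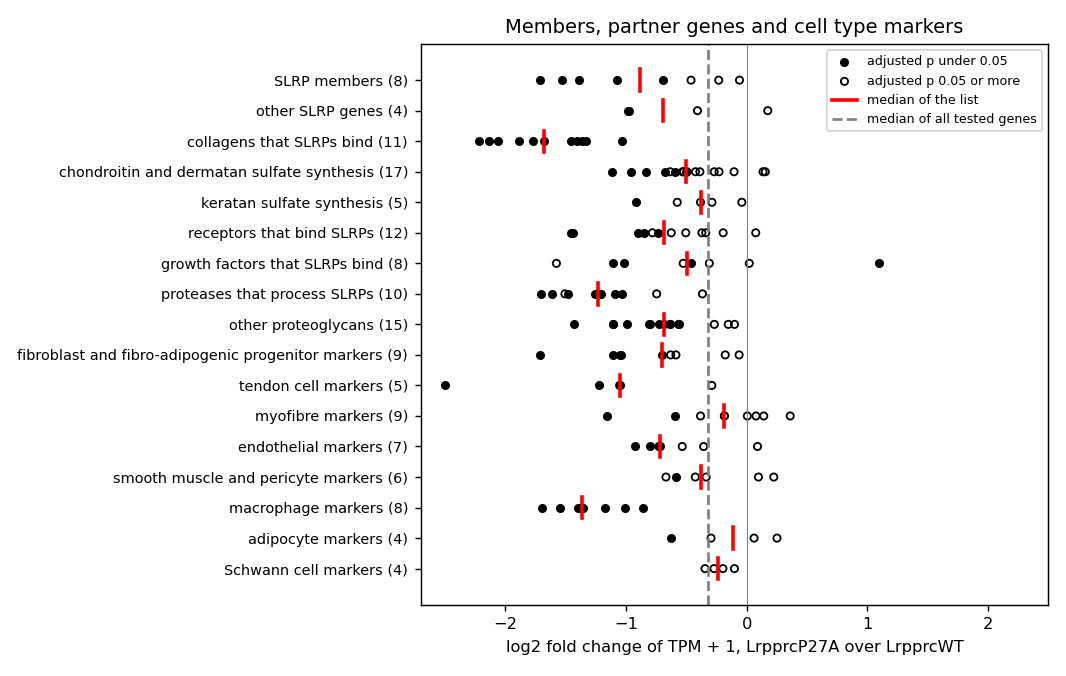
Log2 fold change of TPM + 1, LrpprcP27A over LrpprcWT, of every tested gene in the lists with more than 1 such gene, on the deposited scale (number tested in parentheses). Filled points passed an adjusted p of 0.05, red bars are list medians, and the dashed line is the median of all tested genes, -0.32. The SLRP median (-0.88) lies between those of collagens (-1.68) and of fibroblast markers (-0.70).

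Markers of the cells that make SLRPs were lower in part. Of 9 tested markers of fibroblasts and fibro-adipogenic progenitors, 5 were lower, 7 with the block and 2 after median-of-ratios scaling, and their sum ranged from 486.0 to 641.2 TPM in LrpprcWT and from 336.8 to 490.9 TPM in LrpprcP27A. *Clec3b*, the member with the smallest p, was at -1.05 (adjusted p = 0.0168), and *Pdgfra*, which defines the progenitors, was at 6.47, 4.78 and 5.77 TPM and at 3.77, 2.29 and 3.35 TPM (-0.70, adjusted p = 0.0305). Median-of-ratios scaling brought *Pdgfra* to -0.36 (adjusted p = 0.106), so its call depended on the scale. The summed SLRP TPM per summed marker TPM was 0.671 ± 0.171 in LrpprcWT and 0.415 ± 0.0502 in LrpprcP27A, without overlap (ratio of geometric means 0.628). For this difference the exact two-sided permutation test gave p = 0.1 and the exact test by pairs p = 0.25. That difference rested on *Gsn*, gelsolin, which myofibres also express and which held 47.4% to 65.8% of the marker sum with a log2 fold change of -0.06 (adjusted p = 0.752). Without it, a choice made after the data were seen, the ratio was 1.39 ± 0.271 and 1.19 ± 0.145, with overlapping groups (ratio of geometric means 0.864, exact permutation p = 0.4).

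Tendon markers, which *Fmod* and *Aspn* can accompany, were lower in 3 of 5 tested genes, 4 with the block and 1 after median-of-ratios scaling, with sums from 197.7 to 364.0 TPM in LrpprcWT and from 52.3 to 122.8 TPM in LrpprcP27A. *Cilp* was at 222.8, 93.6 and 137.7 TPM in LrpprcWT and at 36.8, 17.9 and 21.7 TPM in LrpprcP27A (log2 fold change -2.50, adjusted p = 0.0111), while *Tnmd*, tenomodulin, a defining tendon gene, overlapped between groups (-1.05, adjusted p = 0.147, and 0.000847 with the block) and *Mkx* was under 1 TPM in all libraries. *Scx*, also of this list, overlapped between groups (-0.29, adjusted p = 0.298, and 0.07 after median-of-ratios scaling). *Cilp* weighed on the sums, with 222.8 of 364.0 TPM in LrpprcWT replicate 1 and 36.8 of 122.8 TPM in LrpprcP27A replicate 1. Of the 8 cartilage and bone markers only *Sox9* was tested, and it was lower (-1.20, adjusted p = 0.0116). *Matn1* was at 0 in all 6 libraries, and the list summed to 5.38 to 8.70 TPM and 1.46 to 2.76 TPM. The part of tendon or bone tissue in the SLRP values was not tested.

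All 8 macrophage markers were lower. After median-of-ratios scaling 3 of them were called lower by limma (8 at an unadjusted p under 0.05). Their sums ranged from 327.7 to 660.6 TPM in LrpprcWT and from 109.6 to 225.2 TPM in LrpprcP27A. *Lyz2*, lysozyme, the most abundant and the one with the smallest p, had a log2 fold change of -1.54 (adjusted p = 0.0144). Of 7 endothelial markers 3 were lower, and 6 with the block. *Cdh5*, the most abundant, was at -0.80, and *Emcn*, with the smallest p, had an adjusted p of 0.0306. After median-of-ratios scaling 0 endothelial markers were lower and 0 higher by limma (1 and 1 at an unadjusted p under 0.05). Of 6 smooth muscle and pericyte markers 1 was lower, *Pdgfrb* (-0.59, adjusted p = 0.0424), and 4 with the block, against 23.3% and 48.4% of all tested genes. *Rgs5*, the most abundant, was at -0.34 (adjusted p = 0.149, and 0.0250 with the block). After that scaling 0 of these 6 were lower and 0 higher by limma (0 and 2 at an unadjusted p under 0.05). Of 4 tested adipocyte markers 1 was lower, *Fabp4* (-0.63, adjusted p = 0.0319, and 0.240 after scaling), and *Adipoq* and *Cidec* were at 0.06 and 0.25 with no call. None of the 4 tested Schwann cell markers was called by limma, nor had an unadjusted p under 0.05. The 9 myofibre markers, which define the labelled tissue, summed to 134975 to 148759 TPM in LrpprcWT and 123757 to 139688 TPM in LrpprcP27A. Of them 2 were lower, *Mylpf* (-0.59, adjusted p = 0.0168) and *Myh2*. After median-of-ratios scaling 0 were lower and 0 higher by limma (1 and 3 at an unadjusted p under 0.05). Their median log2 fold change was then 0.24. With the block 3 were lower and 1 higher, *Myh4* (0.36, adjusted p = 0.0203), and *Acta1*, the most abundant, was at -0.18 (adjusted p = 0.197). Whether these shifts account for any of the differences in SLRP RNA was not tested.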

How the data were processed

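RNA from 6 TA muscles (n = 3 per group) was sequenced from TruSeq RNA v2 libraries. Per the labels and the study's methods, the authors trimmed the reads, mapped them with CLC Genomics Workbench (GRCm39) and deposited their TPM, which holds no read depth, so no counting error can be given. From these, log2(TPM + 1) was taken for 11611 genes (mean TPM not under 1) and compared with limma 3.58.1 (R 4.3.3, linear model, empirical Bayes with a trend, Benjamini-Hochberg over all tested genes, adjusted p under 0.05). The fit was checked on simulated data. Ratios and sums were compared by exact permutation over the 6 libraries. Those not added after the data were seen were also compared by flipping the signs of the differences between same-numbered libraries.

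Groups came from the labels. Per the study's methods, the libraries of a group are biological replicates from different mice. Both groups share library numbers, and same-numbered libraries deviated together (r 0.36, 0.53 and 0.36, against -0.36 to 0.00 for other pairings), so a fit with the number as a block is given beside named genes and counts whose call it changes. The members and gene lists were chosen with earlier results of these data known. Named genes are the 9 members and, in each list, the most abundant tested gene and the tested gene with the smallest p, apart from some not reported here, and a few others chosen after their values were seen. Positions and promoters were read from GRCm39 with GENCODE.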

Additional observations from a re-analysis of the deposited data

How the results depend on the processing

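The count of 5 lower members was 5 with a pseudocount of 0.1, with a mean TPM of at least 5 and without the limma trend, 6 with the replicate block and 4 with the block and median-of-ratios scaling together. It was 3 after rescaling without mitochondrial and ribosomal RNA genes, 3 after median-of-ratios scaling and 3 after quantile normalization. It was 0 without a filter (21450 genes tested, 7 members at an unadjusted p under 0.05) and 0 by the Kruskal-Wallis test (6 at an unadjusted p under 0.05), whose smallest p with 3 against 3 libraries is 0.0495. Leaving out a library gave 0 to 6. The count of higher members was 0 under every alternative run, at an unadjusted p under 0.05 too.

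Over all tested genes, 42 were lower and 9 higher without a filter, 1560 lower with a mean TPM of at least 5, and 0 and 0 by the Kruskal-Wallis test (5530 and 407 at an unadjusted p under 0.05). The replicate block gave 5619 lower and 312 higher, rescaling 658 lower, median-of-ratios scaling 675 lower and 793 higher, and quantile normalization 518 and 493. Median-of-ratios scaling and the block together gave 1636 and 1995. Leaving out a library gave 15 to 6913 lower and 3 to 304 higher. The causes were not tested.

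The log2 fold change of *Fmod* turned to 0.12 after rescaling, 0.33 after median-of-ratios scaling, 0.28 after quantile normalization and 0.33 with the block and median-of-ratios scaling, and ranged from -0.79 to 0.40 over left-out libraries. That of *Podn* turned to 0.12, 0.17 and 0.12 under the last 3 of these scalings. Of 16 alternatives each, *Dcn* lost its call in 10, *Ogn* in 9, *Bgn* in 4, *Aspn* in 3 and *Lum* in 3, with no change of sign, and *Prelp* gained a call in 2. With the replicate block no other member's call changed. The log2 ratio of SLRPs to fibroblast markers moved from -0.67 to -0.21 without *Gsn*, and that of SLRPs to collagens from 0.87 to 0.33 with collagen VI alone. Ratios within a library and the summed TPM kept their direction in every alternative run. The unknown read depth and 3 libraries a group limit all values.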
